A study of Homo sapiens with 6 samples.

Results

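A set of 10 early-response genes, the AP-1 subunits FOS, FOSB, FOSL1, FOSL2, JUN, JUNB and JUND with EGR1, IER3 and MYC, were followed in 67R lung adenocarcinoma cells after knockdown of BCAT1. They were chosen by name: a row of the deposited table belonged to the set when its gene name was among these 10, and each name matched 1 of the 60664 rows. The names were set with earlier results of these data known. 67R cells are NCI-H1975 cells, an EGFR-mutant non-small cell lung cancer line, in which resistance to ASK120067, an inhibitor of EGFR, had been raised by stepwise dosing, so both groups are drug-resistant cells. Of the 6 libraries, 3 carried the label NC, for cells given negative control siRNA (siNC), and 3 were labelled as BCAT1 knockdown (siBCAT1). BCAT1 is the cytosolic transaminase that starts the breakdown of branched-chain amino acids. Both groups came from a single resistant line, and the sources used here do not give the hours after transfection or the drug in the medium at harvest. The study had 2 siRNAs against BCAT1, and its methods use the plain name siBCAT1, which these libraries carry, for siBCAT1-2. The labels do not say whether the libraries of a group came from separate cultures, and the study's general statement on independent experiments is not tied to these libraries, so the p-values below measure the spread between these libraries, which may be technical.

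Immediate early genes are switched on within minutes of a growth factor or stress signal, without new protein synthesis, and most of their transcripts are short-lived. AP-1 is a dimer of leucine zipper proteins: JUN-family proteins pair with each other or with FOS-family proteins, while FOS-family proteins need a JUN partner, and the pair binds the AP-1 site or the related cAMP response element (CRE). In EGFR-mutant lung cancer cells the ERK arm of the receptor's signaling feeds FOS, FOSL1, EGR1 and MYC, through transcription and through protein stability.

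The sequence in front of these genes differs between members, and the windows below are shown because each holds a word known to be bound by AP-1, by related CRE-binding proteins or by serum response factor. RefSeq promoters (GRCh38.p14, from 250 bases before to 50 bases after the annotated start) were found by symbol for 7 of the 10 genes: FOS, FOSB, FOSL2, JUN, JUNB, JUND and EGR1. Each line is 30 bases, 5′ to 3′ on the strand of the gene, with the matched word in capitals.
EGR1, first CArG box, chr5:138465364-138465393, plus strand: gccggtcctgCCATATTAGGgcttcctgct
EGR1, second CArG box, chr5:138465386-138465415, plus strand: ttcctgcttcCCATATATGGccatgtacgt
FOSL2, AP-1 site, chr2:28392851-28392880, plus strand: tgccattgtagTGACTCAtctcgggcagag
JUN, AP-1-like word, chr1:58784096-58784125, minus strand: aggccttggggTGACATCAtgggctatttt
JUND, CRE, chr19:18281804-18281833, minus strand: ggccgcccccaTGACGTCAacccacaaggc
FOS, first 5 bases of the CRE, chr14:75278752-75278781, plus strand: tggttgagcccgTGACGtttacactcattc
FOSB, first 5 bases of the CRE, chr19:45467924-45467953, plus strand: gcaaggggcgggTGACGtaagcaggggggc

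The CArG box, the word bound by serum response factor, stood at -105 to -96 and at -83 to -74 from the start of EGR1, counting the RefSeq start base as 0, as for all positions here. It was found in 1 of the 7 promoters and in 1.29% of all 35116 promoters of this length. The AP-1 site (TGACTCA, or TGAGTCA, its reverse complement) was found in FOSL2 alone among the 7 and in 4.95% of all promoters, and it began 4 bases after the RefSeq start. The RefSeq starts of FOS, FOSB, FOSL2 and JUN lie inside the gene bounds of GENCODE 29. The matches shown for FOSL2 and JUN fall within the gene as GENCODE draws it, and those shown for FOS and FOSB fall before it. The full CRE (TGACGTCA) was found in JUND alone, at -200 to -193, and in 1.85% of all promoters, and the AP-1-like word TGACATCA was found in JUN alone, at -67 to -60, and in 2.61% of all promoters. The 5-base word TGACG, which lies within the CRE and was added to the search after the sequences were seen, was found on either strand of all 7 promoters and of 24.6% of all promoters. The E-box CACGTG (7.26% of all promoters), the EGR1 word GCGGGGGCG (5.07%) and the ETS word CCGGAAG (10.3%) were in none of the 7 windows. All words were searched on both strands, a match is a description of the sequence only, and no match says only that these letters are not in the window.

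The unit was inferred to be TPM, which corrects an abundance for transcript length and for the library's total, so the levels of different genes can be set side by side. Values are given throughout in the order of replicates 1, 2 and 3. In siNC cells MYC, the E-box binding factor that drives growth genes, was the most abundant, at 534 ± 31.8 TPM (SD, n = 3), which was at or above 98.3% of the genes tested. JUNB (232 ± 43.5 TPM) and FOSL1 (231 ± 30.8 TPM) followed and overlapped each other, as did JUND (142 ± 33.7 TPM) and IER3 (136 ± 18.8 TPM) after them. FOSL2 (51.4 ± 4.05 TPM) and JUN (47.2 ± 2.80 TPM) also overlapped. The classical serum-response genes stood lowest, with FOS at 13.01 ± 5.03 TPM, EGR1 at 3.44 ± 0.699 TPM and FOSB at 0.820 ± 0.741 TPM. FOSB was under the floor set for testing, a mean of 1 TPM over the 6 libraries, and was not tested, so 9 of the 10 genes passed the filter.

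**Figure D1:**
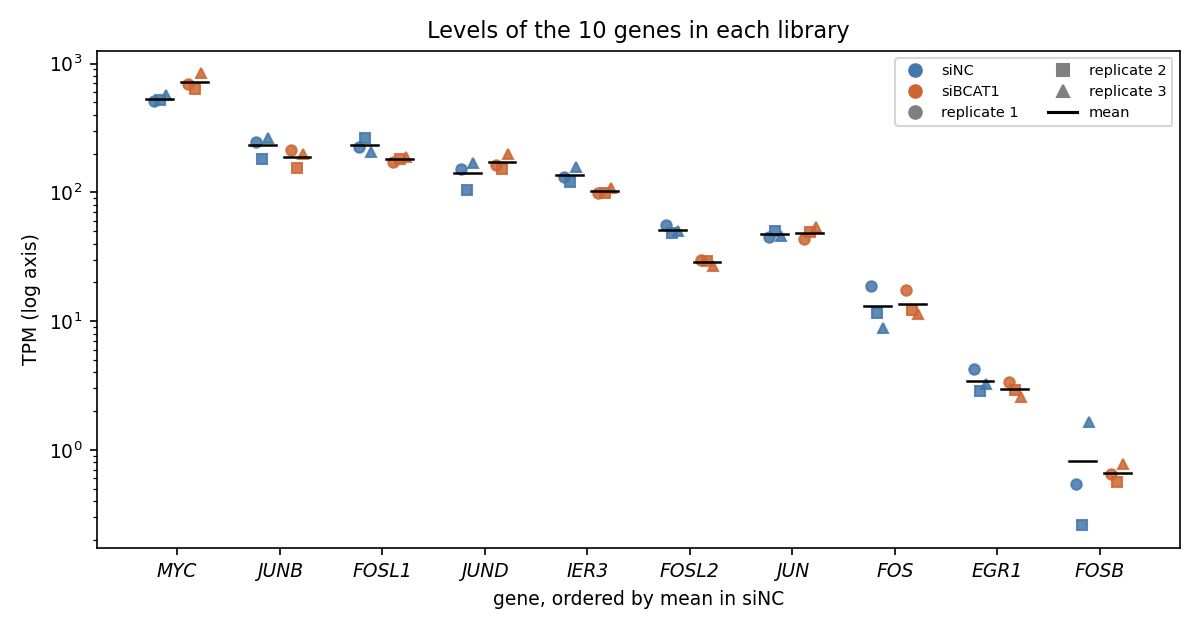
TPM of each gene (log axis) in the 3 siNC (blue) and 3 siBCAT1 (orange) libraries, with a marker shape for each replicate number and a black bar for the group mean. MYC stood at the top of the order, with means of 534 TPM (siNC) and 721 TPM (siBCAT1), and FOSB at the bottom, at 0.820 and 0.663 TPM.

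The libraries were checked before the comparison. BCAT1 was at 42.7, 42.18 and 29.76 TPM in the siNC libraries against 8.78, 7.1 and 8 TPM after knockdown, and its mean fell by 2.12 on the log2 scale in siBCAT1 cells (standard error 0.15, adjusted p = 0.000272 from limma), without overlap. Of 10 markers of lung adenocarcinoma epithelium, the keratin genes KRT7, KRT8 and KRT18 were at 342.07 TPM or more in every library, whereas NKX2-1, NAPSA and SFTPB, which mark alveolar-type adenocarcinoma, were at most 0.33 TPM in any library. Leukocyte, endothelial and fibroblast markers were at or under 2.56 TPM apart from the fibroblast markers COL1A1, COL1A2 and PDGFRB, and CD3E and DCN were at 0 in all libraries. COL1A2 (mean 243 against 211 TPM, siNC against siBCAT1), COL1A1 (15.8 against 9.41) and PDGFRB (5.49 against 2.57) were lower in siBCAT1 cells, without overlap. Of the 10, 6 were lower in siBCAT1 cells with no overlap between the groups, which was so in either direction for 44.1% of all genes tested: KRT7 (mean 922 against 493 TPM, siNC against siBCAT1), KRT8 (1225 against 887), KRT18 (462 against 365), KRT19 (91.3 against 33.9), CDH1 (19.7 against 3.10) and EGFR (20.5 against 15.2). EPCAM was higher in every siBCAT1 library (1.27 against 2.33 TPM). The part of these markers in the results below was not tested. In such bulk RNA, fewer cells of a type and less RNA per cell cannot be told apart. A value above 0 was listed for 23152 to 25043 genes in a library, and TPM gives no total depth, so no counting error can be stated.

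The main comparison asked which of these genes differed between siBCAT1 and siNC cells. FOSL2, IER3 and FOSL1 were lower in siBCAT1 cells and MYC was higher, while FOS, JUN, JUNB, JUND and EGR1 did not pass the threshold. The test was limma on log2(TPM + 1), two-sided, over the 14286 genes that reached this floor, with Benjamini-Hochberg adjustment over all of them and a threshold of 0.05. Of the 9 genes tested, 4 passed (3 lower and 1 higher), beside 27.1% of all genes tested (10.4% lower and 16.7% higher). The groups did not overlap for the same 4 genes, beside 44.1% of all genes tested. The median log2 fold change of the 9 genes was -0.16 and that of all genes tested was 0.04. A fold change on this scale understates the change of weakly expressed genes.

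**Figure D2:**
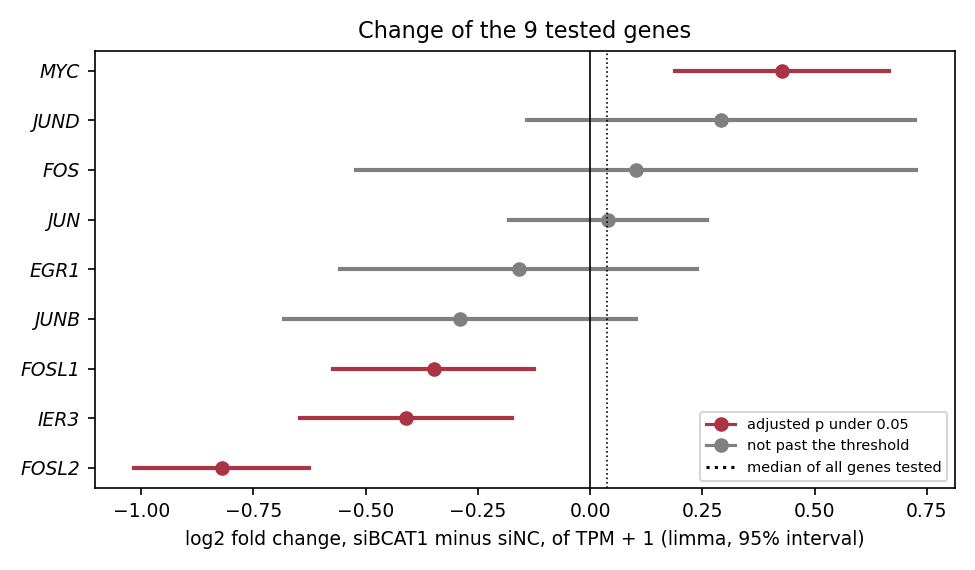
Log2 fold change (siBCAT1 minus siNC, of TPM + 1) of the 9 tested genes, with the 95% confidence interval from limma as a bar. The intervals of FOSL2, IER3 and FOSL1 lay below 0 and that of MYC above 0, and the dotted line marks the median of all genes tested, 0.04.

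FOSL2, which encodes the FRA2 subunit of AP-1, showed the largest difference of the set. It was at 55.95, 48.2 and 50.04 TPM in siNC and at 29.94, 29.04 and 26.91 TPM in siBCAT1 cells. The groups stood well apart, with the highest siBCAT1 library below the lowest siNC library. The log2 fold change was -0.82 (standard error 0.08, 95% interval -1.02 to -0.63, adjusted p = 0.000894 from limma), and the mean in siBCAT1 cells was 0.557 of that in siNC cells. It passed the threshold under all 14 alternatives tried, with log2 fold changes from -0.90 to -0.76. FOSL2 (ENSG00000075426, plus strand, chr2:28392448-28417312 in GRCh38, GENCODE 29) has the longest 3′ UTR of the set, 4864 bases with 9 copies of the AU-rich pentamer ATTTA, a word common in unstable transcripts.

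FOSL1 encodes FRA1, an AP-1 subunit whose level follows ERK signaling. It was at 223.48, 265.39 and 205.24 TPM in siNC and at 171.96, 182.76 and 186.98 TPM in siBCAT1 cells. The siBCAT1 libraries lay close together below all siNC libraries, and the gap to the lowest siNC library was small beside the spread of siNC. The log2 fold change was -0.35 (standard error 0.10, 95% interval -0.57 to -0.12, adjusted p = 0.0336 from limma). The call was lost without siNC replicate 1 (adjusted p = 0.0910) and without siBCAT1 replicate 1 (0.117), replicate 2 (0.0934) or replicate 3 (0.0781), with correction for GC content and length (log2 fold change -0.37, adjusted p = 0.0542), and without the floor (-0.35, adjusted p = 0.0965). FOSL1 (ENSG00000175592) has 4 exons at chr11:65892049-65900573, minus strand.

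The FOS family as a whole was made up mainly of FOSL1. FOSL1 took 74.8, 81.6 and 77.2% of the family's summed TPM in siNC and 78.1, 81.4 and 82.7% in siBCAT1 cells, and these shares overlapped. FOSL2 took 18.7, 14.8 and 18.8% in siNC and 13.6, 12.9 and 11.9% in siBCAT1 cells, without overlap. Shares within a library do not depend on a common factor put on its values. The family's summed TPM was 297 ± 29.8 in siNC and 224 ± 3.08 in siBCAT1 cells (SD, n = 3 each), and the groups did not overlap. The ratio of FOSL1 to FOSL2 was 3.99, 5.51 and 4.10 in siNC and 5.74, 6.29 and 6.95 in siBCAT1 cells, higher in each siBCAT1 library. With 3 libraries against 3, an exact two-sided permutation test of such a value cannot give a p below 0.1, and none was run.

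FOS, the first AP-1 gene to answer serum, differed more between replicates than between groups. It was at 18.61, 11.56 and 8.87 TPM in siNC and at 17.52, 12.15 and 11.32 TPM in siBCAT1 cells. Replicate 1 was the highest library in both groups, and the groups overlapped. The log2 fold change was 0.10 with a 95% interval of -0.52 to 0.72 (adjusted p = 0.811 from limma). Its sign turned without siNC replicate 3 (-0.12) and without siBCAT1 replicate 1 (-0.08). FOSB was at 0.54, 0.26 and 1.66 TPM in siNC and at 0.65, 0.56 and 0.78 TPM in siBCAT1 cells, and 1 siNC library held the highest value of the gene. Fitted without the floor, its log2 fold change was -0.06 with a 95% interval of -0.76 to 0.64 (adjusted p = 0.930 from limma). FOS took 3.34 to 7.96% of the family's TPM over the 6 libraries, and FOSB at most 0.625%.

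**Figure D3:**
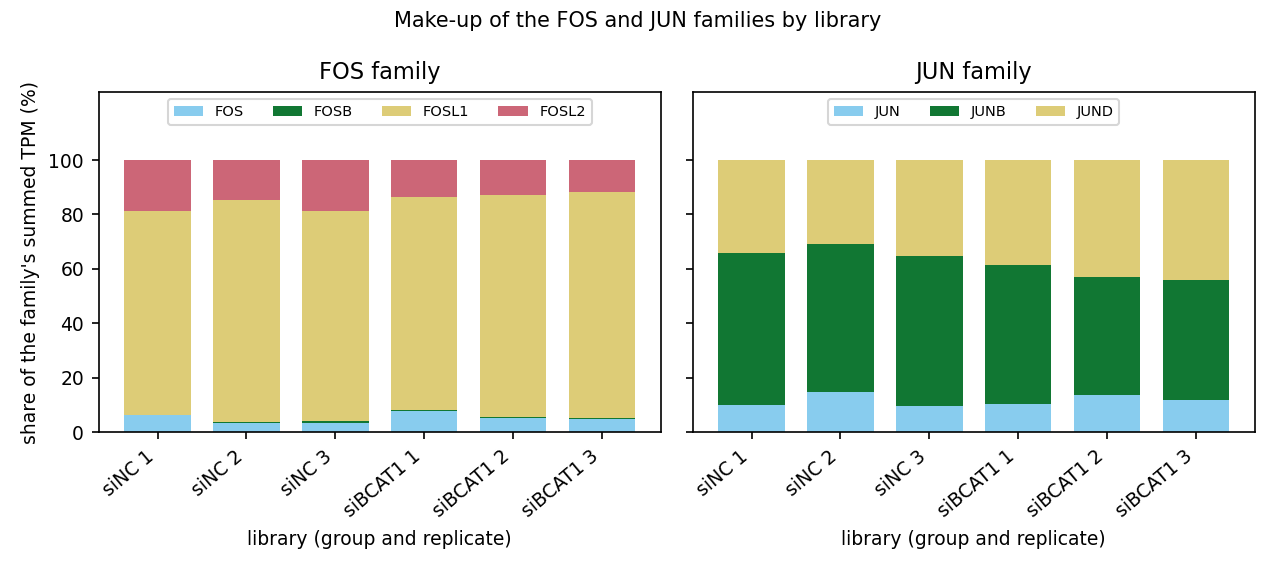
Share of each gene in the summed TPM of the FOS family (left) and the JUN family (right), in percent, for each library. FOSL2 took a mean of 17.5% of the FOS family in siNC and 12.8% in siBCAT1 libraries, and JUNB took 55.0% of the JUN family in siNC and 46.1% in siBCAT1 libraries.

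The JUN genes, which carry no introns, showed no member past the threshold. JUN, the prototype of the family, was at 45.14, 50.35 and 45.98 TPM in siNC and at 43.32, 48.96 and 53.65 TPM in siBCAT1 cells. The groups overlapped throughout, and the interval of the log2 fold change (0.04) was -0.18 to 0.26 (adjusted p = 0.786 from limma). The sign turned under quantile normalization (-0.050) and without siBCAT1 replicate 3 (-0.032).

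JUNB, which can oppose JUN at some promoters, was at 246.46, 182.75 and 265.93 TPM in siNC and at 213.49, 154.19 and 198.66 TPM in siBCAT1 cells. The groups overlapped, and replicate 2 was the lowest library in both. JUNB had a log2 fold change of -0.29 with a 95% interval of -0.68 to 0.10 (adjusted p = 0.243 from limma), and it was -0.45 without siNC replicate 2, -0.18 without siNC replicate 3 and -0.15 without siBCAT1 replicate 2. Exons of HOOK2 overlap JUNB on the opposite strand; HOOK2 was at 20 to 32.57 TPM over the 6 libraries. The library kit keeps the strand, but the strand setting of the authors' quantification is not given in the sources used here.

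JUND, the family member least dependent on stimulation, was at 151.9, 103.95 and 168.86 TPM in siNC and at 161.69, 152.71 and 198.99 TPM in siBCAT1 cells. The groups overlapped, and siNC replicate 2 was the lowest of the 6 libraries. For JUND the log2 fold change was 0.29 with a 95% interval of -0.14 to 0.72 (adjusted p = 0.284 from limma), and it was 0.09 without siNC replicate 2. JUND and JUNB are the most GC-rich of the 10 transcripts, at 69.7 and 64.9%, against a median of 48.8% over the genes tested.

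Set against each other within a library, JUND and JUNB separated the groups that neither gene separated alone. The ratio of JUND to JUNB was 0.616, 0.569 and 0.635 in siNC and 0.757, 0.990 and 1.00 in siBCAT1 cells, higher in every siBCAT1 library. JUNB took 55.6, 54.2 and 55.3% of the summed TPM of the JUN family in siNC and 51.0, 43.3 and 44.0% in siBCAT1 cells. JUND took 34.3, 30.8 and 35.1% in siNC and 38.6, 42.9 and 44.1% in siBCAT1 cells. These shares, chosen for display after the values were seen, are a description with no test. The family's summed TPM was 420 ± 74.6 in siNC and 409 ± 48.5 in siBCAT1 cells (SD, n = 3 each) and overlapped.

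EGR1, a zinc finger factor induced by serum and growth factors, was low. It was at 4.22, 2.87 and 3.23 TPM in siNC and at 3.38, 2.91 and 2.58 TPM in siBCAT1 cells. The groups overlapped, and the log2 fold change was -0.16 with a 95% interval of -0.56 to 0.24 (adjusted p = 0.525 from limma), and it was -0.037 without siNC replicate 1, -0.090 without siBCAT1 replicate 3 and -0.25 without siNC replicate 2. IER3, an early gene that modulates survival and ERK signaling, was at 131.08, 120.72 and 157.13 TPM in siNC and at 98.99, 98.44 and 107.99 TPM in siBCAT1 cells. All siBCAT1 libraries were below all siNC libraries, and the mean was 25.3% below that of siNC. IER3 changed by a log2 fold of -0.41 (standard error 0.10, 95% interval -0.65 to -0.17, adjusted p = 0.0235 from limma). The call was lost without siNC replicate 1 (adjusted p = 0.0703) and without siBCAT1 replicate 1 (0.0858), replicate 2 (0.0854) or replicate 3 (0.0518), and without the floor (0.0692). The antisense RNA annotated over IER3 (ENSG00000137331, minus strand, chr6:30743199-30744554), IER3-AS1, was at most 0.83 TPM.

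MYC was the member that rose. It was at 513.88, 516.48 and 570.25 TPM in siNC and at 688.67, 636.76 and 838.82 TPM in siBCAT1 cells. The siBCAT1 libraries were all above the siNC libraries and varied more among themselves, with SDs of 105 and 31.8 TPM. The log2 fold change was 0.43 (standard error 0.10, 95% interval 0.19 to 0.66, adjusted p = 0.0209 from limma), a rise of 35.2% in the mean. The call was lost under median-ratio scaling of the libraries (log2 fold change 0.39, adjusted p = 0.0648), without the floor (0.0741), and without siNC replicate 1 (adjusted p = 0.0906), siNC replicate 2 (0.0599), siNC replicate 3 (0.0502) or siBCAT1 replicate 1 (0.0623).

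**Figure D4:**
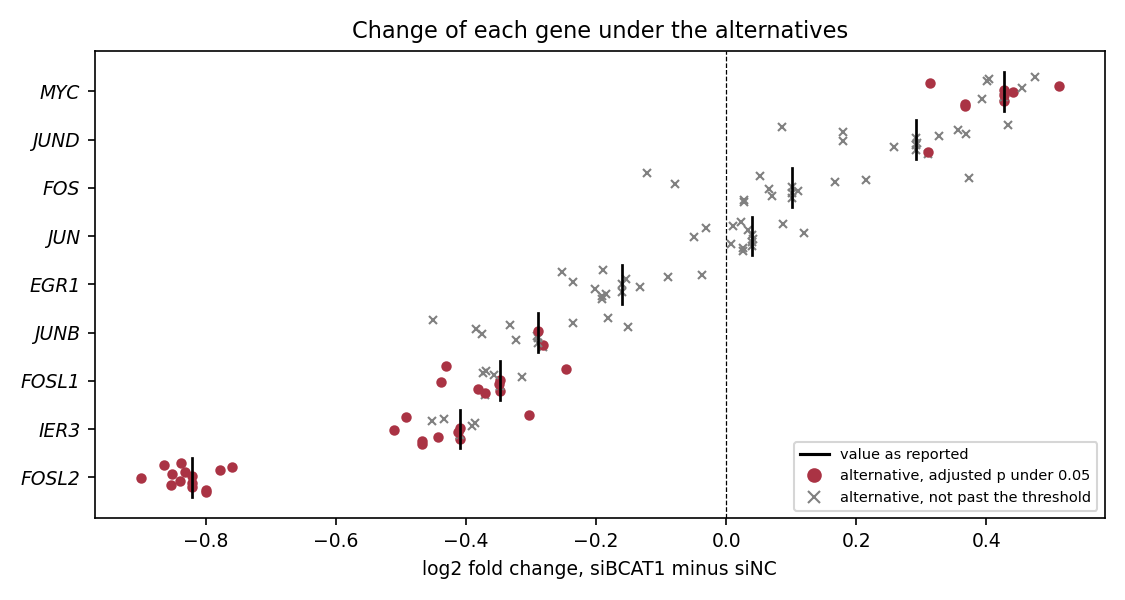
Log2 fold change (siBCAT1 minus siNC) of each tested gene as reported (black bar) and under each alternative, with a red circle where the adjusted p stayed under 0.05 and a grey cross where it did not. FOSL2 was past the threshold in 14 of 14 alternatives, IER3 in 9, FOSL1 in 8 and MYC in 8, and the values of FOS and JUN fell on both sides of 0.

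The MYC network was next examined through a list of 14 genes, of which 11 were tested: 2 rose, 3 fell and 6 did not pass (18.2% higher and 27.3% lower, beside 16.7 and 10.4% of all genes tested), with a median log2 fold change of -0.18 that was -0.11 without siBCAT1 replicate 1. That median was -0.12 without the floor, where 14 were tested. MAX, the obligatory partner of MYC on DNA, rose from 433.57, 427.88 and 424.82 TPM in siNC to 531.11, 540.26 and 560.67 TPM in siBCAT1 cells (log2 fold change 0.34, standard error 0.04, adjusted p = 0.00173 from limma). MAX and MYC were both higher, and their ratio overlapped between the groups, at 1.185, 1.207 and 1.342 in siNC and 1.297, 1.179 and 1.496 in siBCAT1 cells. MXD3, a MAX partner that represses MYC sites, rose (0.52, adjusted p = 0.0246 from limma), and MXD4, of the same family, fell (-0.48, adjusted p = 0.0257). MYCBP, a MYC-binding protein, fell furthest, from a mean of 24.6 to 8.10 TPM (-1.499 on the log2 scale, adjusted p = 0.000286 from limma), and MLXIP, a glucose-responsive relative in the network, fell too (-0.67, adjusted p = 0.00281). MAX, MYCBP and MLXIP passed under all 14 alternatives. MXD3 lost its call without siNC replicate 1 or any siBCAT1 replicate (adjusted p = 0.0720 to 0.0870 from limma), and MXD4 without siNC replicate 1, siNC replicate 3 or any siBCAT1 replicate (0.0604 to 0.0908). Without the floor, MXD3 (0.0692) and MXD4 (0.0697) lost it too.

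Among 32 genes known to be induced by MYC, all of them tested, 12 rose and 1 fell, 37.5 and 3.13% beside 16.7 and 10.4% of all genes tested. This list, like the others here, was chosen with earlier results of these data known. In all, 28 of the 32 had a log2 fold change above 0, and the median was 0.21. NOLC1, a nucleolar chaperone of ribosome assembly, rose most, from 42.86, 47.26 and 33.43 TPM in siNC to 212.01, 201.33 and 198.32 TPM in siBCAT1 cells (log2 fold change 2.29, standard error 0.12, adjusted p = 0.000138 from limma). The mitochondrial chaperonin gene HSPD1 (0.94, adjusted p = 0.000828 from limma) and POLR1B, a subunit of RNA polymerase I (0.67, adjusted p = 0.0131), followed. The exception was LDHA, which makes lactate from pyruvate and fell (-0.84, adjusted p = 0.000267 from limma); it belongs to the glycolysis genes that the study selected. The number that rose depended on single libraries and on scaling: it was 3 without siNC replicate 1, 23 without siNC replicate 2, 4 without siNC replicate 3, 5 without siBCAT1 replicate 1, 5 without siBCAT1 replicate 2 and 4 without siBCAT1 replicate 3, and it was 5 with median-ratio scaling, 6 with correction for GC content and length and 4 without the filter on low values. The median stayed above 0 in each of these, at 0.17 to 0.28. Under quantile normalization 8 rose, and the median was 0.14. The share of all genes called, in either direction, changed too. It was 27.1% with all libraries, 25.9% without siNC replicate 2 and 16.2 to 17.5% without any other single library. It was 26% with median-ratio scaling, 28.7% with correction for GC content and length and 8.06% without the filter. NOLC1, HSPD1 and LDHA passed under all 14 alternatives, and POLR1B lost its call without siNC replicate 1, siBCAT1 replicate 1 or siBCAT1 replicate 3 (adjusted p = 0.0527 to 0.0591 from limma).

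The other immediate early genes did not move as a block. Of 38 listed genes 33 were tested, and 4 rose, 9 fell and 20 did not pass, 12.1 and 27.3% beside 16.7 and 10.4% of all genes tested. The median was -0.12. With a floor of 5 TPM it was -0.18, and 12 of 30 listed genes fell, beside 1302 of all 10456 genes tested. The genes that fell furthest were PLK2, a stress-induced polo-like kinase (46.24, 61.2 and 33.54 TPM in siNC against 17.96, 29.22 and 23.64 TPM in siBCAT1 cells, adjusted p = 0.0259 from limma), ZFP36, which degrades AU-rich transcripts (-0.66 on the log2 scale, adjusted p = 0.0292), and KLF10, an early TGF-β response gene (-0.57, adjusted p = 0.00821). The matricellular genes CCN1 (147.38, 166.71 and 169.16 TPM in siNC against 356.97, 291.92 and 420.95 TPM in siBCAT1 cells, adjusted p = 0.00133 from limma) and CCN2 (1.16, adjusted p = 0.0130) rose most, followed by ID1, an inhibitor of basic helix-loop-helix factors (0.83, adjusted p = 0.00826). The count of falling genes was 3 without siNC replicate 1, and 4 without siNC replicate 3, siBCAT1 replicate 1 or siBCAT1 replicate 2. Beside this, the share of all genes called was 27.1% with all libraries and 16.2 to 17.5% without 1 of these. CCN1, ID1 and KLF10 passed under all 14 alternatives. CCN2 lost its call without siNC replicate 1, siBCAT1 replicate 1 or siBCAT1 replicate 2 (adjusted p = 0.0534 to 0.0628 from limma), PLK2 without each library other than siNC replicate 3 and siBCAT1 replicate 2 (0.0631 to 0.0993), and ZFP36 without each library other than siNC replicate 2 (0.0805 to 0.115). Without the floor, CCN2 (0.0508), PLK2 (0.0870) and ZFP36 (0.0886) lost it too.

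The bZIP proteins that pair with AP-1 subunits or bind the CRE gave 3 rising and 2 falling genes among 12 tested of 15 (25 and 16.7%, beside 16.7 and 10.4% of all genes tested), with a median of 0.24 that was 0.14 without siBCAT1 replicate 1, 0.037 without the floor and 0.51 with a floor of 5 TPM. The CRE-binding genes went both ways. CREB1 fell from 24.3, 17.65 and 22.87 TPM in siNC to 12.85, 11.95 and 13.64 TPM in siBCAT1 cells (adjusted p = 0.00809 from limma), whereas CREM (log2 fold change 0.64, adjusted p = 0.00237) and ATF1 (0.65, adjusted p = 0.0154) rose. MAFF, a small MAF protein, rose (0.64, adjusted p = 0.0188 from limma), and MAF, a large one, fell from 2.14 to 0.357 TPM (-1.17, adjusted p = 0.0217). In the siBCAT1 libraries MAF was at 0.19, 0.51 and 0.37 TPM. It thus reached the floor of 1 TPM only through siNC, a limit on its call and on the count of 2 falling genes. CREB1 and CREM passed under all 14 alternatives. Of the others, ATF1 lost its call without siNC replicate 3, siBCAT1 replicate 1 or siBCAT1 replicate 2 (adjusted p = 0.0510 to 0.0575 from limma), MAFF without siNC replicate 1, siBCAT1 replicate 1 or siBCAT1 replicate 3 (0.0649 to 0.0778), and MAF without siNC replicate 1, siNC replicate 3, siBCAT1 replicate 1 or siBCAT1 replicate 3 (0.0547 to 0.0640). Without the floor, ATF1 (0.0502), MAFF (0.0594) and MAF (0.0534) lost it too.

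Upstream of these genes, 23 kinases and transcription factors were all tested, and 1 rose and 4 fell (4.35 and 17.4%, beside 16.7 and 10.4% of all genes tested), with a median of 0.03 that was -0.00093 without siBCAT1 replicate 1 and between 0.05 and 0.11 without any other single library. MAPK7, the kinase ERK5 (log2 fold change -0.78, adjusted p = 0.00114 from limma), MAPK14, the p38α kinase (-0.69, adjusted p = 0.00326), and ELK1, the ETS partner of serum response factor (-0.59, adjusted p = 0.00213), fell furthest. ELK1 was at 41.08, 39.16 and 38.79 TPM in siNC and at 26.54, 24.02 and 27.39 TPM in siBCAT1 cells, without overlap. RPS6KA4, the nuclear kinase MSK2, rose (0.48, adjusted p = 0.0126 from limma), a call lost without siNC replicate 1, siNC replicate 3, siBCAT1 replicate 2 or siBCAT1 replicate 3 (0.0528 to 0.0562). Under median-ratio scaling, quantile normalization or correction for GC content and length, 6 of the 23 fell. Of all genes tested, 1689 of 14286, 1865 of 14286 and 1870 of 14141 fell in these settings, in that order. With a floor of 5 TPM, 3 rose, beside 2273 of all 10456 genes tested. The median of the list was 0.0050 under median-ratio scaling and 0.088 with that floor, where 21 were tested. Among 16 corepressors and turnover factors, all tested, 1 rose and 2 fell (6.25 and 12.5%, beside 16.7 and 10.4% of all genes tested), with a median of 0.09 that was -0.01 under quantile normalization and 0.14 without siBCAT1 replicate 3. That median was 0.040 with a floor of 5 TPM, where 15 were tested, and 0.056 under median-ratio scaling. SKP2, part of a ubiquitin ligase for MYC, rose (0.36, adjusted p = 0.0355 from limma), STUB1, the ubiquitin ligase CHIP, fell (-0.25, adjusted p = 0.00939), and COP1, part of a ubiquitin ligase for JUN, fell (-0.32, adjusted p = 0.0489). MAPK7, MAPK14, ELK1 and STUB1 passed under all 14 alternatives, whereas SKP2 lost its call without each library other than siNC replicate 2 (adjusted p = 0.0672 to 0.117 from limma) and COP1 without each other than siBCAT1 replicate 1 (0.0687 to 0.145). Without the floor, SKP2 (0.0870) and COP1 (0.0988) lost it too, as did SKP2 under quantile normalization (0.0806).

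Genes that AP-1 is known to drive gave 2 rising and 4 falling among 15 tested of 26 (13.3 and 26.7%, beside 16.7 and 10.4% of all genes tested), with a median of -0.17 that was -0.069 without siNC replicate 1, -0.097 without siNC replicate 3, -0.072 without siBCAT1 replicate 3, -0.27 without siNC replicate 2 and -0.030 without the floor, where 24 were tested. CCND1, which encodes cyclin D1, fell from 243.88, 277.62 and 206.77 TPM in siNC to 111.25, 112.13 and 97.07 TPM in siBCAT1 cells (log2 fold change -1.17, standard error 0.11, adjusted p = 0.000745 from limma). The cytokine LIF (-1.03, adjusted p = 0.00127) and the integrin subunit ITGA2 (-0.65, adjusted p = 0.0177) fell as well. CXCL8, the neutrophil chemokine, went the other way, from 7.09, 7.03 and 4.84 TPM to 21.09, 14.9 and 13.11 TPM (1.24, adjusted p = 0.00501 from limma), and the metallothionein gene MT2A rose (0.31, adjusted p = 0.0259). CCND1, LIF and CXCL8 passed under all 14 alternatives. ITGA2 lost its call without siNC replicate 1, siBCAT1 replicate 2 or siBCAT1 replicate 3 (adjusted p = 0.0510 to 0.0581 from limma), and MT2A without siNC replicate 1, siNC replicate 2, siBCAT1 replicate 1 or siBCAT1 replicate 3 (0.0594 to 0.101). Without the floor, ITGA2 (0.0652) and MT2A (0.0996) lost it too, as did MT2A under median-ratio scaling (0.105). Under the filter were 11 of the 26, so the count covers only the targets that these cells express.

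**Figure D5:**
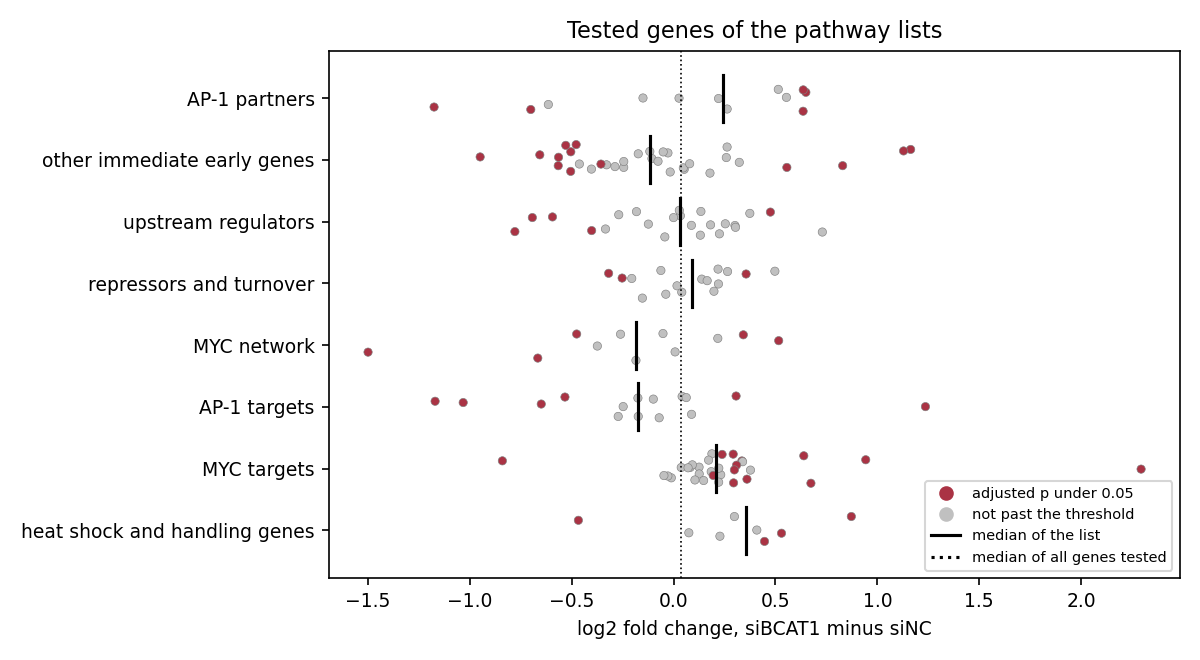
Log2 fold change (siBCAT1 minus siNC) of each tested gene of the 8 lists, with red points for an adjusted p under 0.05, a black bar for the median of the list and a dotted line for the median of all genes tested. The medians ran from -0.18 in the MYC network to 0.35 in the heat shock and handling genes, and NOLC1 lay farthest to the right at 2.29.

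Early genes also answer heat and handling, so 8 heat shock genes were listed beside them. All were tested, and 3 rose and 1 fell (37.5 and 12.5%, beside 16.7 and 10.4% of all genes tested), with a median of 0.35 that was 0.06 without siBCAT1 replicate 3 and 0.23 without siNC replicate 1. HSP90AA1, HSPH1 and HSPB1 rose (log2 fold changes 0.87, 0.53 and 0.45, adjusted p = 0.00122, 0.0197 and 0.00694 from limma), and BAG3 fell (-0.47, adjusted p = 0.0255). HSP90AA1 and HSPB1 passed under all 14 alternatives, HSPH1 lost its call without siNC replicate 1 or 3 (adjusted p = 0.0640 to 0.0790 from limma), and BAG3 without siNC replicate 1 or 3 or siBCAT1 replicate 1 or 2 (0.0911 to 0.0933). Without the floor, HSPH1 (0.0615) and BAG3 (0.0736) lost it too, as did HSPH1 under median-ratio scaling (0.0517). HSPA1A, the stress-inducible HSP70 gene, was named after its values were seen. It was at 110.51, 91.54 and 198.51 TPM in siNC and at 140.95, 108.22 and 309.54 TPM in siBCAT1 cells, with the highest library of each group in replicate 3 (adjusted p = 0.510 from limma). The part of such differences in the changes above was not tested. LDHA, HSPD1, HSPB1, HSP90AA1, MT2A and HSPA1A have close paralogs or pseudogene copies, and reads shared with these could make their values uncertain, which was not tested.

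The 3′ UTRs of the 10 genes (longest protein-coding transcript of GENCODE 29) were searched for the words that pair with the seeds of the study's BCAT1 siRNAs. The 7-base words TTGAGCA (siBCAT1-2, the siRNA that the methods call siBCAT1) and AGACAAT (siBCAT1-1) were in none of the 10, against 12.5 and 9.98% of the 3′ UTRs of 11602 tested genes. The 6-base word GACAAT, part of the siBCAT1-1 word, was present in FOSB, JUN and EGR1, 1 copy each, against 23% of those genes, and in none of FOSL2, FOSL1, IER3 and MYC. The 6-base part of the siBCAT1-2 word was not searched. The pentamer ATTTA was present in all 10, against 72% of the tested genes. It had 1 copy in FOSL1, JUND and EGR1, 2 in JUNB, 3 in FOSB and JUN, 4 in MYC and 5 in FOS. IER3 held 6 copies and FOSL2 held 9. Any part of this word in the changes was not tested.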

How the data were processed

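The table held 6 libraries of 67R cells, grouped from their titles. The authors deposited values rounded to 2 decimals beside a gene length. The deposited values were read as TPM, since they sum to between 992512 and 995593 per library. Per the labels and the study's methods, reads were processed with fastp, HISAT2 and StringTie on GRCh38; versions and annotation are not given in the sources used here. No replicates were pooled, and any pair of libraries had identical values for at most 1.42% of the tested genes. Columns of per-sample values of other samples: none. TPM holds no depth, so precision rests on the 3 libraries of a group.

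Values were transformed to log2(TPM + 1) and tested with limma 3.58.1 in R 4.3.3 (trend, two-sided, 14286 genes averaging 1 TPM or more, Benjamini-Hochberg, threshold 0.05). The same replicate numbers in both groups did not meet the rule for pairing. Their correlations (0.0844, 0.1021 and 0.1238) were not all over 0.1, and the labels tie the numbers to no shared culture. The script was tested on simulated data. Named genes were the 10 members, BCAT1 and, per list, up to 3 of the largest rises and 3 of the largest falls past the threshold. The members and lists were chosen with earlier results of these data known. Alternatives were no filter, a floor of 5 TPM, a pseudocount of 0.1, a replicate block, median-ratio scaling, quantile normalization, each library left out, and, chosen after seeing the data, a loess correction (span 0.5) for GC content and length, alone and with the block. Python 3.11.15, pandas 2.3.3 and matplotlib 3.10.9 served for sequences and figures.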

Additional observations from a re-analysis of the deposited data

How the results depend on the processing

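BCAT1 and, of the 10 genes, FOSL2 kept their direction and stayed past the threshold under all 14 alternatives. FOSL1, IER3 and MYC kept their direction too, but their calls depended on single libraries and on the filter. Without single libraries their log2 fold changes ran from -0.43 to -0.25, from -0.49 to -0.30 and from 0.31 to 0.51. The share of all genes called was 27.1% as reported, 16.2 to 25.9% without single libraries and 8.06% without the filter. Depth is unknown. With each library left out in turn, 1435 to 2276 genes were called higher and 796 to 1430 lower, 0 to 1 of the 10 genes higher and 1 to 3 lower, and 13 to 40 list genes higher and 14 to 26 lower (28 and 26 with all libraries). Without the filter on low values, which tests 31860 genes, 960 genes were lower, as were 1 of the 10 genes and 17 list genes, while 13 list genes were higher. By limma, 0 of the 10 genes were higher without that filter or with median-ratio scaling, where 1 was at an unadjusted p under 0.05 in each. Calls split 61.6% higher as reported and 52.3% under quantile normalization. Turned signs were those of FOS (-0.12 and -0.08, range without single libraries -0.12 to 0.37) and JUN (-0.050 under quantile normalization, range without single libraries -0.032 to 0.12).

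Deviations of same-numbered libraries from their group means correlated at 0.08, 0.10 and 0.12, each above any correlation with another number, a hint from the data only. With the replicate block, 2773 genes were higher and 1795 lower, and JUNB passed the threshold (log2 fold change -0.29, adjusted p = 0.0209 from limma). With correction for GC content and length and the replicate block together, 2 of the 10 genes were higher, MYC and JUND (0.31, adjusted p = 0.0289), and JUNB was again lower (adjusted p = 0.0214); the cause was not tested. Counts of single lists without single libraries ran from 3 to 8 falling early genes, 3 to 6 falling AP-1 targets and 3 to 23 rising MYC targets.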
